A study of Mus musculus with 8 samples.

Results

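Interferon-stimulated genes are the genes that a cell switches on when interferon binds its receptors. The set described here holds 41 such genes, chosen by name: factors that carry the signal, sensors of foreign nucleic acid, antiviral effectors and the interferon-induced GTPases. All 41 were found among the 24112 genes of the tables by Entrez gene ID. They were placed in 11 subgroups by what their products do.

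The RNA came from LSK cells, the lineage-negative Sca1-positive Kit-positive bone marrow fraction that is rich in blood stem and early progenitor cells, in C57BL/6 mice after transplantation. In all 8 mouse libraries the donor marrow carried Cre under the Vav promoter, which is active in blood cells and limits the deletion to them. The 4 wild-type libraries (WT1 to WT4) had Vav-Cre alone, and the 4 knockout libraries (KO1 to KO4) also lacked Traf6, the gene for a ubiquitin ligase downstream of Toll-like and interleukin-1 receptors. The study asked whether TRAF6 keeps up a basal NF-κB activity in these cells. The labels give neither age nor sex, nor whether each library is a mouse of its own, so a p-value here measures the spread between libraries, which may be technical. No treatment with interferon or infection is named, so the levels below are those of untreated cells after transplantation.

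Type I interferons act through a receptor whose Janus kinases activate STAT factors, and these join IRF9 to form a complex that binds the interferon-stimulated response element (ISRE) in promoters. Interferon-γ acts through another receptor and the gamma-activated sequence (GAS) and induces IRF1, a factor that in turn acts on ISRE-like sites and many GTPase genes. In stem cells of the blood, interferons can drive quiescent cells into division, and stem cells are known to hold a basal level of interferon-stimulated transcripts.

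Values are RPKM, in which reads are divided by gene length and by the size of the library, so levels can be compared between genes. Depth, estimated from the steps between low values, was 19.3 to 30.7 M reads (megareads) per library. Of the 11276 genes tested (at least 1 RPKM in at least 4 libraries), KO3 listed 24.1% at 0, KO4 11.3% and WT2 8.22%, while the other 5 libraries listed 0.266% to 1.72%. A gene at 0 in these libraries is therefore written as listed at 0, and its absence is not implied. KO3 and KO4 were run in lane 5, and all WT libraries, KO1 and KO2 in lane 4. Traf6 itself was at 14.9, 3.52, 9.40 and 7.10 RPKM in the WT libraries and at 0.613, 0.818, 0 and 0.00721 RPKM in the KO libraries, so each library followed its label. The sorting gene Kit was at 73.8 to 83.1 RPKM in WT and 50.6 to 113 RPKM in KO, and Ly6a, which encodes Sca1 and is itself induced by interferon, at 7.32 to 11.8 and 6.53 to 10.9 RPKM. Of the 6 lineage markers listed, 4 stayed below 1 RPKM in every library. Itgam, a myeloid marker, was at 0.71 to 2.76 RPKM in WT and 5.92 to 22.8 RPKM in KO.

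Most of the 41 genes were transcribed at modest levels in WT cells, with a median of 10.7 RPKM and a range of group means from 0.297 RPKM (Ifit3) to 72.7 RPKM (Sp100). Averaged over the 8 libraries, 10 genes were at 20 RPKM or above and 9 were below 5 RPKM. Of the 41, 25 were above 0 in all 8 libraries. The nuclear body gene Sp100, the membrane-linked effectors Ifi27 and Bst2, and the GTPase genes Irgm1 and Gbp3 were among the most abundant. The classical antiviral genes Mx1, Mx2 and Ifit3 were barely detected. Ifit1 was at 3.93 to 6.43 RPKM in WT1, WT3 and KO2 and was listed at 0 in the other libraries.

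The clearest differences between KO and WT lay in 4 genes that were low in every KO library, Gbp2b, Ifi44l, Ifi44 and Isg20, and in 1 that was high in every KO library, Gbp3. In limma, with Benjamini-Hochberg adjustment over all genes tested, 0 of the 37 members tested passed an adjusted p of 0.05, as did 0% of all genes. At an unadjusted p under 0.05 there were 5 members (13.5%, beside 7.51% of all genes), 4 lower and 1 higher in KO, against 4.74% of all genes lower and 2.77% higher. The groups did not overlap in 5 members (5.92% of all genes), 4 that were lower and 1 that was higher, where 3.88% and 2.05% of all genes were so placed. The members that passed the filter on low values include Gbp2b and Ifi44l, which reached 1 RPKM in WT libraries only, so their presence among the genes tested already required a difference. The other 36 members of the 41 overlapped between WT and KO.

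Differences are given on the log2(RPKM + 1) scale as KO minus WT ± SE with n = 4 per group, a scale that understates the change of low genes. The median difference of the 37 members tested was -0.30, and that of all genes tested was -0.14. Relative to all genes the members thus lay at -0.17. Of the members, 25 had negative differences (67.6%), against 61.0% of all genes tested. The relative median was -0.06 without KO1 and -0.25 without KO2, and -0.11 without WT2. It was -0.27 in the lane 4 libraries and -0.03 with library weights, so the members as a whole moved little and by an amount that depended on which libraries were used.

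**Figure D1:**
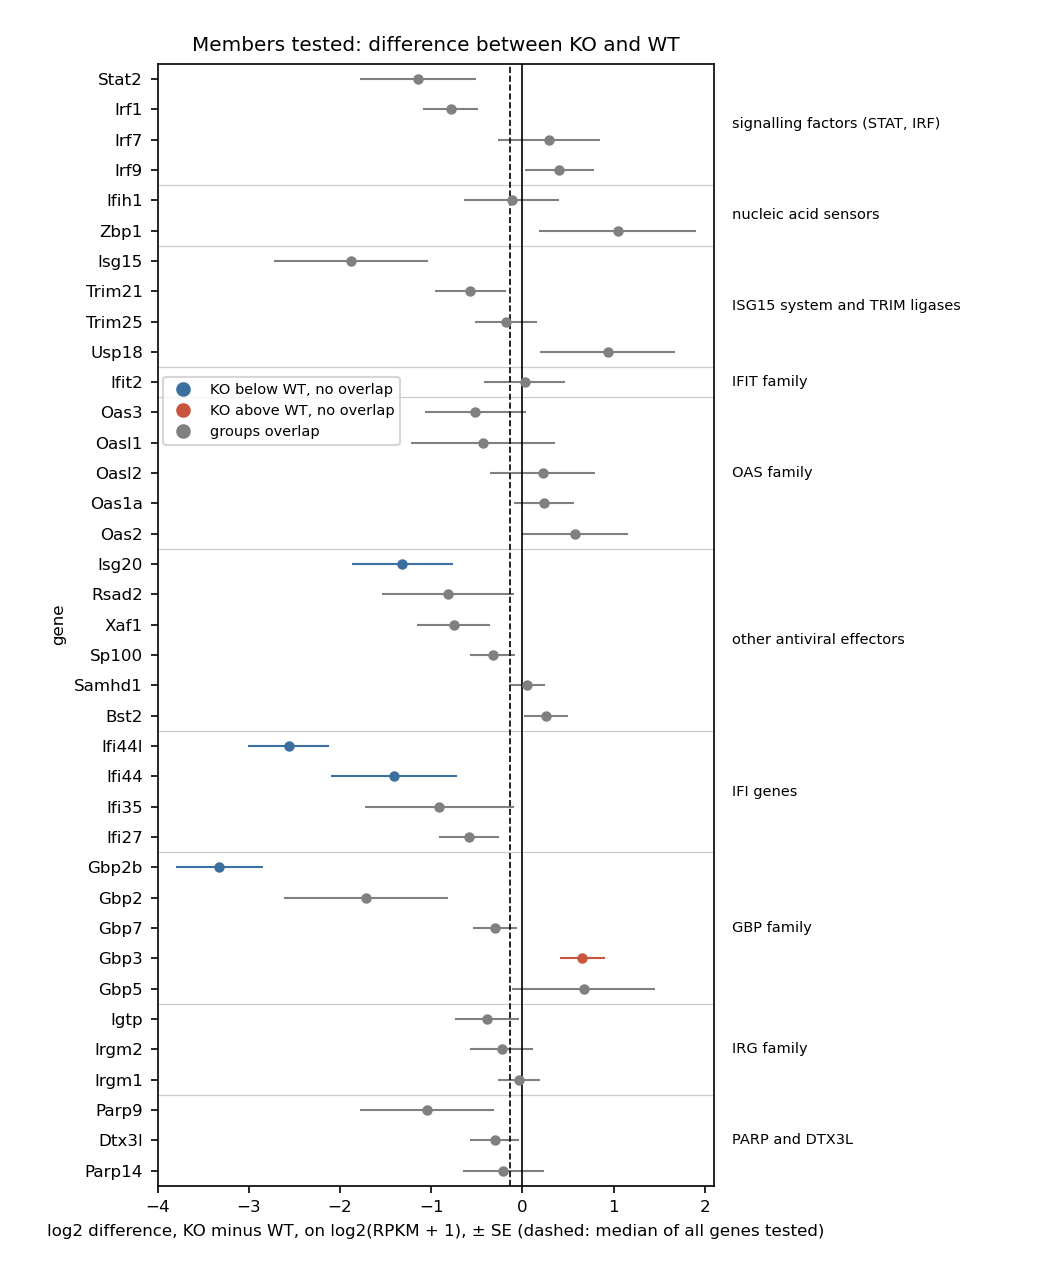
Log2 difference between KO and WT (x axis, KO minus WT on log2(RPKM + 1), points with ± SE) for the 37 members tested, by subgroup (y axis). Gbp2b, Ifi44l, Ifi44 and Isg20 lie to the left without overlap of the groups and Gbp3 to the right, while the others spread on either side of the median of all genes (dashed line, -0.14).

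Part of the variation lay between KO libraries. KO1 had the lowest value of all 8 libraries in 15 of the 37 members, where it was lowest in 11.5% of all genes tested. It was below KO2, the other KO library of lane 4, in 35 of 37 members, against 59.1% of all genes. KO1 listed 3 of the 37 at 0, Ifi44, Ifi44l and Gbp2b, a share of 8.11% beside 0.452% of all genes. Of these, Ifi44l and Gbp2b reached 1 RPKM in WT libraries only. The mean level of the members in a library, relative to all genes tested, was -0.86 in KO1, between -0.19 and -0.10 in the other 3 KO libraries and between -0.26 and 0.07 in WT. KO1 was also the library with the highest summed level of neutrophil markers, 167 RPKM over 8 genes. The sum was 0.252 to 35.9 RPKM in the other KO libraries and 0 to 10.3 RPKM in WT. Most of the KO1 sum was a single gene, Lcn2, at 142.5 RPKM. In KO1 Ltf, Ngp, Cd177 and Retnlg were listed at 0 and Camp was at 0.653 RPKM. S100a8 was highest in KO1 (15.05 RPKM), but S100a9 was highest in KO4 (35.7 RPKM, beside 9.03 RPKM in KO1). The part of these markers in the member levels was not tested. KO3 was lowest in 10 of the 37 members and highest in 9, where it was lowest in 30.3% and highest in 22.3% of all genes tested. It listed 8 of the 37 at 0, a share of 21.6% beside 24.1% of all genes.

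**Figure D2:**
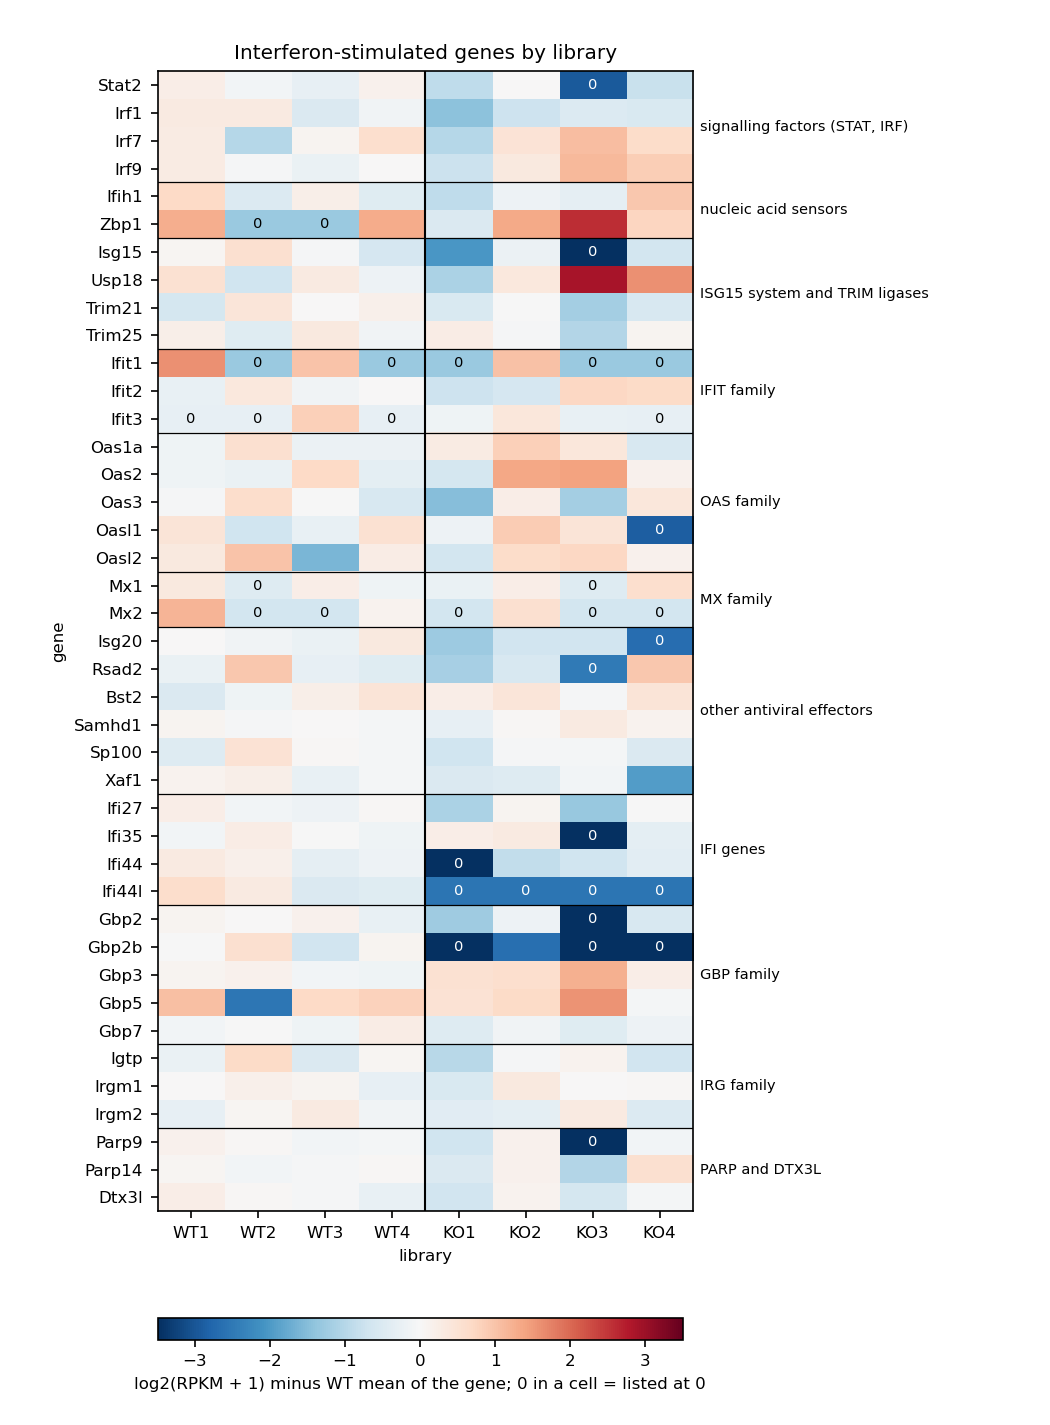
Level of each of the 41 genes (rows, by subgroup) in each library (columns), as log2(RPKM + 1) minus the gene's WT mean; blue is lower, red is higher, the colour scale ends at 3.5 on either side, and 0 marks a value listed at 0. Gbp2b and Ifi44l are blue in every KO library, KO1 is pale to dark blue in most rows, and KO3 holds both the darkest red (Usp18) and 11 values listed at 0.

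The signalling factors did not move together. Irf1, the interferon-γ-induced factor, was at 33.9, 34.2, 18.6 and 24.7 RPKM in WT1 to WT4 and at 9.46, 15.8, 19.2 and 18.6 RPKM in KO1 to KO4. Every KO value but that of KO3 lay below every WT value. The means were 27.8 ± 7.58 and 15.8 ± 4.45 RPKM (SD, n = 4), a difference of -0.79 ± 0.30 that missed the threshold (limma adjusted p = 0.634). The difference was negative in all 20 alternatives run, some of which could not change it. Irf9, the DNA-binding part of the type I complex, was at 29.0, 22.7, 19.8 and 23.9 RPKM in WT against 13.7, 30.2, 53.1 and 44.1 RPKM in KO. KO1 lay below all WT libraries and the other 3 KO libraries above them all. Irf7, the factor that amplifies interferon production, was at 2.24 to 8.63 RPKM in WT and 2.20 to 12.5 RPKM in KO, again with KO3 and KO4 above every WT value. Stat2, part of the same type I complex as IRF9, was at 5.24 to 8.03 RPKM in WT against 3.16, 6.78, 0 and 3.46 RPKM in KO, overlapping through KO2. The 4 factors thus gave 2 negative and 2 positive differences, with a median of -0.25.

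The sensors were low and variable. Ifih1, which encodes the double-stranded RNA sensor MDA5, was at 10.1, 3.85, 6.84 and 4.08 RPKM in WT against 2.65, 4.98, 4.45 and 12.0 RPKM in KO, with full overlap of the groups. Zbp1, a sensor of Z-form nucleic acid that can start necroptosis, was at 4.91 and 5.07 RPKM in WT1 and WT4 and listed at 0 in WT2 and WT3. In KO it was at 0.723, 5.14, 13.8 and 3.14 RPKM. The difference was 1.04 ± 0.86 (limma adjusted p = 0.757) and became -0.25 when values of 0 were treated as missing.

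In the ISG15 system the modifier and its protease went different ways. Isg15, the ubiquitin-like protein that is joined to other proteins after interferon, was at 24.9, 35.8, 23.0 and 15.4 RPKM in WT against 5.09, 20.7, 0 and 14.7 RPKM in KO. Only KO2 reached into the WT range. The difference of -1.88 ± 0.84 missed the threshold (limma adjusted p = 0.665) and was -0.96 without KO3, where Isg15 was listed at 0. Usp18, the protease that removes ISG15 and damps the type I receptor, was at 12.4, 4.69, 10.3 and 7.18 RPKM in WT against 3.26, 10.9, 66.5 and 26.6 RPKM in KO. KO1 was the lowest of the 8 libraries and KO3 and KO4 were the highest. The ubiquitin ligase genes Trim21, an antibody receptor of the cytosol, and Trim25, which activates RIG-I, overlapped between groups, at means of 11.0 ± 3.38 and 7.17 ± 2.66 RPKM and of 17.0 ± 4.05 and 15.4 ± 5.38 RPKM (SD, n = 4).

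Irf7, Irf9, Usp18 and Ifit2 lay above every WT value in both KO3 and KO4, the lane 5 libraries. In the lane 4 library KO2, Irf9 also lay above every WT value (30.2 RPKM), and Irf7 and Usp18 lay within the WT range. In the lane 5 libraries KO3 and KO4 together, 6 of 37 members lay above every WT value (Irf7, Irf9, Usp18, Ifit2, Samhd1 and Gbp3), a share of 16.2% beside 8.57% of all genes tested. In the lane 4 libraries KO1 and KO2 together, only Gbp3 did (2.70%, beside 10.7% of all genes). Ifit2 was split outright: it was at 6.73, 11.1, 7.63 and 8.41 RPKM in WT, at 4.64 and 5.21 RPKM in KO1 and KO2, and at 14.5 and 14.0 RPKM in KO3 and KO4. No WT library was run in lane 5, so lane and genotype cannot be told apart for KO3 and KO4. Each pair also held 9 members below every WT value, against 13.5% of all genes for KO1 and KO2 and 15.0% for KO3 and KO4. Isg20, Ifi44, Ifi44l and Gbp2b were the ones common to both pairs.

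The IFIT family, whose proteins bind viral RNA with foreign 5′ ends, was represented among the genes tested by Ifit2 alone, with a difference of 0.02 ± 0.44 (limma adjusted p = 0.991). Within lane 4 it was -0.66. Ifit1 was at 6.43 and 3.93 RPKM in WT1 and WT3 and at 4.03 RPKM in KO2, and was listed at 0 in the other 5 libraries. Ifit3 did not exceed 1.19 RPKM in any library, and 51.2% of the 50-base windows of its transcripts also occur in its copy Ifit3b, so reads of the pair may be divided or dropped. The MX genes, dynamin-like GTPases that block influenza and other viruses, were as low: Mx1 was at most 1.03 RPKM and Mx2, listed at 0 in 5 libraries, at most 2.55 RPKM. Mx1 is known to be defective in most laboratory mouse strains.

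The OAS family, which makes the 2′-5′ oligoadenylate that activates RNase L, was the largest family tested with a median above that of all genes. Its 5 members had a median difference of 0.22, with 3 positive and 2 negative. Oas1a was the most abundant at 17.5, 28.8, 16.5 and 16.7 RPKM in WT against 23.6, 35.0, 25.8 and 12.9 RPKM in KO. KO2 lay above every WT value and KO1 and KO3 above all but that of WT2, and 57.6% of the 50-base windows of Oas1a are shared with Oas1g. Oas2 was at 1.73, 1.59, 3.90 and 1.40 RPKM in WT against 0.978, 6.67, 7.05 and 2.37 RPKM in KO, a difference of 0.58 ± 0.58 (limma adjusted p = 0.794). Oas1a and Oas2 were positive in every alternative run, some of which could not change a sign, whereas Oas3, Oasl1 and Oasl2 changed sign in at least 1.

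Among the other antiviral effectors, Isg20 differed most. Isg20, an RNA exonuclease, was at 5.38, 4.86, 4.42 and 7.09 RPKM in WT against 1.66, 2.99 and 2.99 RPKM in KO1 to KO3, and was listed at 0 in KO4. No KO value reached the lowest WT value. The difference of -1.32 ± 0.55 missed the threshold (limma adjusted p = 0.645) and was -0.87 with values of 0 as missing. Xaf1, a pro-apoptotic partner of XIAP, was at 16.1 to 23.0 RPKM in WT against 13.6, 14.0, 18.4 and 4.27 RPKM in KO, overlapping through KO3 alone. Sp100, a nuclear body protein that restrains viral genomes, was the most abundant member at 51.6, 100.0, 72.4 and 66.8 RPKM in WT and 43.1, 69.0, 66.9 and 50.0 RPKM in KO. Its groups overlapped. Samhd1, a dNTP hydrolase that starves reverse transcription, was the steadiest, at 29.2 ± 1.51 and 30.5 ± 5.25 RPKM (SD, n = 4). Bst2, which tethers budding virions, was at 49.1 ± 14.3 and 57.6 ± 8.46 RPKM. Rsad2, which encodes viperin, was at 3.19 to 9.70 RPKM in WT and from 0 in KO3 to 9.75 RPKM in KO4.

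The IFI genes were the subgroup with the lowest median, -1.16, and all 4 had negative differences in these data. Relative to all genes the median was -1.02, and it was -0.55 with values of 0 as missing, -0.67 with library weights and -1.81 with a pseudocount of 0.1. Ifi44l was at 8.06, 6.38, 3.19 and 3.37 RPKM in the WT libraries, and every KO library listed it at 0, so no fold is given. Its limma adjusted p over all genes was 0.298. Ifi44, its neighbour and relative, was at 15.3, 13.8, 9.54 and 10.6 RPKM in WT against 6.20, 7.16 and 9.20 RPKM in KO2 to KO4, and was listed at 0 in KO1. KO4, the highest KO library, lay just below WT3, the lowest WT library. The difference of -1.41 ± 0.69 (limma adjusted p = 0.665) was -0.64 with the value of KO1 treated as missing. KO1 listed 0.452% of all genes tested at 0. Ifi44 and Ifi44l both encode cytoplasmic proteins induced by type I interferon, and none of the 50-base windows of either gene occurs in another gene. Ifi27, a mitochondrial and nuclear envelope protein, was at 58.8 to 78.8 RPKM in WT against 30.6, 72.1, 26.2 and 66.5 RPKM in KO. KO1 and KO3 lay below all WT libraries and KO2 and KO4 within them. Ifi35, a partner of NMI, was at 12.0 to 16.3 RPKM in WT against 15.9, 17.0, 0 and 10.2 RPKM in KO, so that its difference of -0.91 ± 0.82 became 0.07 without KO3.

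Guanylate-binding proteins (GBPs) are large GTPases that coat and break open the vacuoles of intracellular microbes. In the mouse the 5 members are neighbours on chromosome 3, in the order Gbp5, Gbp7, Gbp3, Gbp2b and Gbp2. Gbp2b, formerly named Gbp1, was at 10.6, 16.3, 6.39 and 11.5 RPKM in WT, at 0.859 RPKM in KO2 and listed at 0 in KO1, KO3 and KO4. The highest KO value was thus below 1 RPKM and the lowest WT value above 6 RPKM. The difference, -3.32 ± 0.48, was the most negative of the 37 members (limma adjusted p = 0.238). Its neighbour Gbp3 was the opposite case: it was at 26.7, 27.4, 23.1 and 22.4 RPKM in WT against 36.6, 37.9, 60.1 and 29.3 RPKM in KO. Every KO value of Gbp3 exceeded every WT value, with a difference of 0.66 ± 0.25 (limma adjusted p = 0.634). Gbp2, on the other side of Gbp2b, was at 30.3, 28.4, 31.4 and 23.3 RPKM in WT against 11.2, 24.7, 0 and 18.7 RPKM in KO, with KO2 alone inside the WT range. Gbp7 was at 16.5 ± 2.25 and 13.2 ± 1.68 RPKM (SD, n = 4). Gbp5, which promotes inflammasome assembly, was at 11.2, 0.0172, 8.48 and 9.29 RPKM in WT against 7.32, 8.43, 16.6 and 4.59 RPKM in KO.

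The family therefore had no common direction. Its level relative to all genes was between -0.09 and 0.33 in WT and between -0.66 and -0.25 in KO, but without Gbp2b it was between -0.22 and 0.49 in WT and between 0.12 and 0.43 in KO. The median difference of the GBP members was -0.30 with Gbp2b and 0.18 without it. Few sequences are shared: 1.84% of the 50-base windows of Gbp2b occur in another gene (Gbp2), as do 3.75% of those of Gbp3 (Gbp7), so reads of 50 bases can separate the genes over most of their length. The IFI genes had a median of -0.91 without Ifi44l. With 3 genes left, that median is the difference of Ifi35, which became 0.07 without KO3. The levels of these 3 genes also overlapped between WT and KO.

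**Figure D3:**
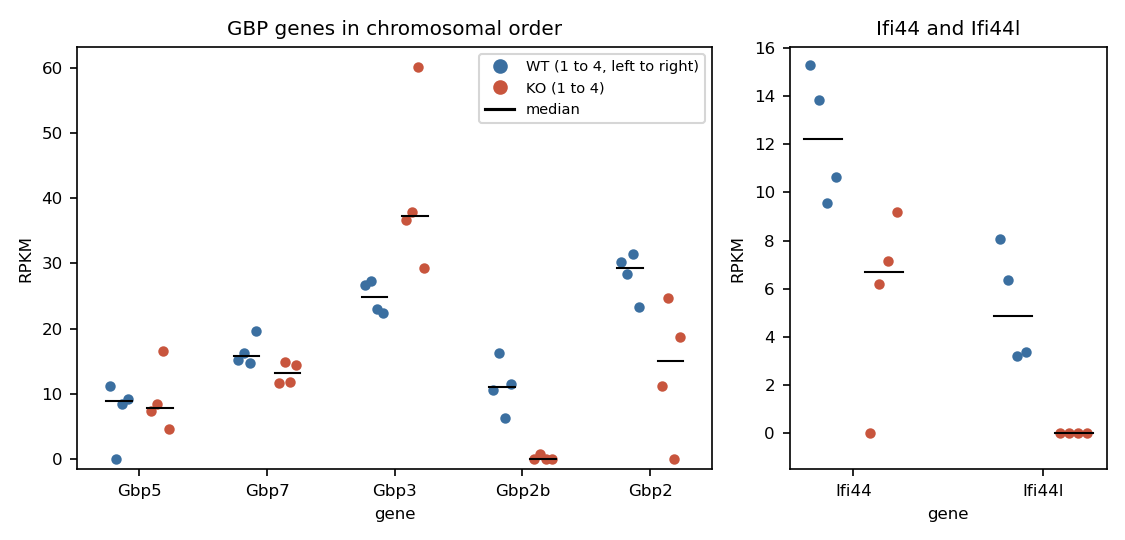
RPKM (y axis) of the 5 GBP genes in their order on chromosome 3 and of the neighbours Ifi44 and Ifi44l (x axis), with 1 point per library (WT blue, KO red) and a bar at the median. Gbp2b and Ifi44l sit at or near 0 in KO, Gbp3 is higher in all 4 KO libraries, and the WT and KO points of Gbp5, Gbp7 and Gbp2 overlap.

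The promoters of these genes are shown because neighbouring GBP genes with the same kind of element had opposite differences. The 250 bases upstream of the start, from RefSeq on GRCm38.p6, are printed 5′ to 3′ on the gene's strand, and capitals mark each match to the ISRE core, GAAA followed by any 2 bases and GAAA, on either strand (on the opposite strand TTTC, any 2 bases, TTTC). Overlapping matches were counted separately.
Gbp5, chr3:142496684-142496933, plus strand: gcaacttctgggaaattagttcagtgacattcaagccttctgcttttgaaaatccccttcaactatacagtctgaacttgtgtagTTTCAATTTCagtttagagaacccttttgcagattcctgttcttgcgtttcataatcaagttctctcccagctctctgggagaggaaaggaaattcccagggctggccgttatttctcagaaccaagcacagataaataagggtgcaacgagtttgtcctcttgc
Gbp7, chr3:142530086-142530335, plus strand: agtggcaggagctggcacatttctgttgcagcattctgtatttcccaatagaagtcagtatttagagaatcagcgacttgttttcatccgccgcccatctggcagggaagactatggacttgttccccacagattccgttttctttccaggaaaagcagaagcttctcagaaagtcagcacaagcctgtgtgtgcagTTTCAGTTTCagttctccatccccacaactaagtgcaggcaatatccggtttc
Gbp3, chr3:142559794-142560043, plus strand: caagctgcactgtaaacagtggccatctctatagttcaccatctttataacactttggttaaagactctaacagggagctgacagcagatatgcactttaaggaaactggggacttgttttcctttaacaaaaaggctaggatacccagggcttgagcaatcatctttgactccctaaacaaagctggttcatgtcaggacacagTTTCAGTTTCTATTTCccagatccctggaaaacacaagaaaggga
Gbp2b, chr3:142594597-142594846, plus strand: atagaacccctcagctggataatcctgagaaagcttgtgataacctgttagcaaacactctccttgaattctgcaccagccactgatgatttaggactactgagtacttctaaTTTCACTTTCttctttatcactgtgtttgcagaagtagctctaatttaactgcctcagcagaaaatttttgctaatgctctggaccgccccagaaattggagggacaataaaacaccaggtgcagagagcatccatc
Gbp2, chr3:142620413-142620662, plus strand: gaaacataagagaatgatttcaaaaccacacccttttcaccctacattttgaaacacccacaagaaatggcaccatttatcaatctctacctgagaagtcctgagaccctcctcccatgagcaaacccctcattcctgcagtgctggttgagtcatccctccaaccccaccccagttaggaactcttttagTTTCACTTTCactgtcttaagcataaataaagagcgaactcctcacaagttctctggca
All 5 GBP promoters held the ISRE core. Gbp3, the member that was higher in KO, held 2 overlapping matches 30 to 45 bases upstream of its start. Gbp3 has 2 annotated starts, and the window with more matches, or the first if equal, is shown. Gbp2b and Gbp2 have 1 each. Gbp2b held 1 match, 128 to 137 bases upstream, and Gbp2 1 match 50 to 59 bases upstream. The Gbp5 and Gbp7 windows each also held 2 matches to the GAS core (TTC, any 3 bases, GAA), and those of Gbp3, Gbp2b and Gbp2 held none.

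The other genes without overlap, and Isg15 as the member with the most ISRE matches, were read in the same way.
Isg15, chr4:156200819-156201068, minus strand: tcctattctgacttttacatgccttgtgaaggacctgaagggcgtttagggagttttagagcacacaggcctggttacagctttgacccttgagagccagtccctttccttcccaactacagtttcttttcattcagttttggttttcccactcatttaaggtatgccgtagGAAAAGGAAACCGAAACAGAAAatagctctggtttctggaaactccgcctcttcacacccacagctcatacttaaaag
Isg20, chr7:78913174-78913423, plus strand: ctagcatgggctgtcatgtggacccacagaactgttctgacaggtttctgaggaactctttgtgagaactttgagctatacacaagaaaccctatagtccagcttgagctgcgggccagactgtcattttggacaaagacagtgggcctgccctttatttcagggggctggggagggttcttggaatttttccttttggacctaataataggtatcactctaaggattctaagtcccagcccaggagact
Ifi44, chr3:151749911-151750160, minus strand: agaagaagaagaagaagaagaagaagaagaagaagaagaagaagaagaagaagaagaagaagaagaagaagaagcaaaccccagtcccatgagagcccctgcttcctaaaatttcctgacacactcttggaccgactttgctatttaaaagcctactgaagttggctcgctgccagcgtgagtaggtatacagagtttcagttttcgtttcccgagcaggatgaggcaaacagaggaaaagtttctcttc
Ifi44l, chr3:151762892-151763141, minus strand: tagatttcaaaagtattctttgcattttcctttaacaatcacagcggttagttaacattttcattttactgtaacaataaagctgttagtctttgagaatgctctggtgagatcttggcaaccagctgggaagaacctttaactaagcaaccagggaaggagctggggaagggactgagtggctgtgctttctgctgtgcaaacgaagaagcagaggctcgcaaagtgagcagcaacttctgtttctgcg
Isg15 held 3 overlapping matches, 57 to 78 bases upstream, whereas Isg20, Ifi44 and Ifi44l held none in this window. Isg20 has 3 annotated starts, and the first by position is shown. Of the 33 members with a promoter in the table, 16 (48.5%) held the ISRE core in at least 1 of their windows, against 3.46% of the 27025 genes with a promoter; the GAS core was found in 10 (30.3%), against 8.13%. Among the members tested, the 14 with an ISRE match had a median difference of -0.34 and the 17 without one -0.33.

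The immunity-related GTPases (IRGs), which act on vacuoles together with the GBPs, differed little. Irgm1, a regulator of the family that also protects stem cells during infection, was at 38.3, 42.8, 40.2 and 31.0 RPKM in WT against 25.8, 47.8, 38.1 and 39.1 RPKM in KO. Only KO1 lay outside the WT range on the low side. Igtp (also Irgm3) had the smallest p of the 3, with 15.6, 29.9, 12.8 and 19.5 RPKM in WT and 9.01, 18.1, 20.1 and 11.2 RPKM in KO (-0.39 ± 0.35, limma adjusted p = 0.776). Irgm2 was at 9.16 ± 1.82 and 7.78 ± 2.44 RPKM (SD, n = 4). The median of the 3 was -0.23, or -0.09 relative to all genes.

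PARP9 and DTX3L form a complex that modifies histones and viral proteins, and PARP14 is a mono-ADP-ribosyl transferase. The 3 genes are neighbours on chromosome 16. Dtx3l was at 24.1, 21.1, 19.6 and 16.9 RPKM in WT against 12.5, 22.1, 13.0 and 19.2 RPKM in KO. Parp9, the one of smallest p, was at 11.8, 10.9, 9.82 and 10.1 RPKM in WT against 6.16, 12.0 and 9.91 RPKM in KO1, KO2 and KO4, and was listed at 0 in KO3. Its difference of -1.04 ± 0.74 (limma adjusted p = 0.732) was -0.21 without KO3. Parp14 was at 6.63 ± 0.40 and 6.19 ± 3.34 RPKM (SD, n = 4). In WT these 3 genes varied little, and in KO the values of KO1 and KO3 were the low ones.

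Set side by side, the subgroups ranged from a median difference of -1.16 (IFI genes, 4 tested) and -0.54 (other antiviral effectors, 6 tested) to 0.22 (OAS family, 5 tested) and 0.46 (the 2 sensors). Between these lay the ISG15 system at -0.37, PARP and DTX3L at -0.30, the GBPs at -0.30, the signalling factors at -0.25, the IRGs at -0.23 and Ifit2 at 0.02. The sensors and the OAS family did not keep their sign: relative to all genes the sensors' median was 0.60, but -0.048 in lane 4, -0.31 without WT2, KO3 and KO4 and -0.15 with values of 0 as missing, and that of the OAS family was 0.36, but -0.19 without WT3. Only the IFI genes and the GBPs had a level that was lower in every KO library than in every WT library, and for both this overlapped once Ifi44l or Gbp2b was left out. In each of the other 8 subgroups with a gene tested the KO levels overlapped those of WT. Some markers of other cells differed between the groups beside the IFI genes and the GBPs. The 8 T and NK cell markers summed to 25.2 to 42.6 RPKM in WT and 6.68 to 25.2 RPKM in KO, overlapping through KO2. Of these, 4 stayed below 1 RPKM in every library, and Cd3g was at 0 in all. Lck, a T cell kinase, was at 35.2, 19.1, 33.8 and 20.8 RPKM in WT against 7.74, 22.6, 3.82 and 3.04 RPKM in KO (limma adjusted p = 0.515). It made up most of the sum in WT, KO1 and KO2. Mean levels in WT and KO were 1.75 and 0.127 RPKM for Cd3d, 1.015 and 0.176 RPKM for Ncr1, and 3.12 and 3.18 RPKM for Klrb1c. The 8 monocyte and macrophage markers summed to 160 to 235 RPKM in WT and 174 to 188 RPKM in KO, with 3 below 1 RPKM in every library. Most of each sum was a single gene, Lyz2, at 118.5 to 168.4 RPKM in WT and 119.2 to 175 RPKM in KO. Within that list the chemokine receptor gene Ccr2 was lower in every KO library (37.3 to 57.1 RPKM in WT, 5.93 to 36.3 RPKM in KO) and the growth factor receptor gene Csf1r higher (0.542 to 5.79 and 6.04 to 22.0 RPKM). The part of these markers in the member levels was not tested.

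**Figure D4:**
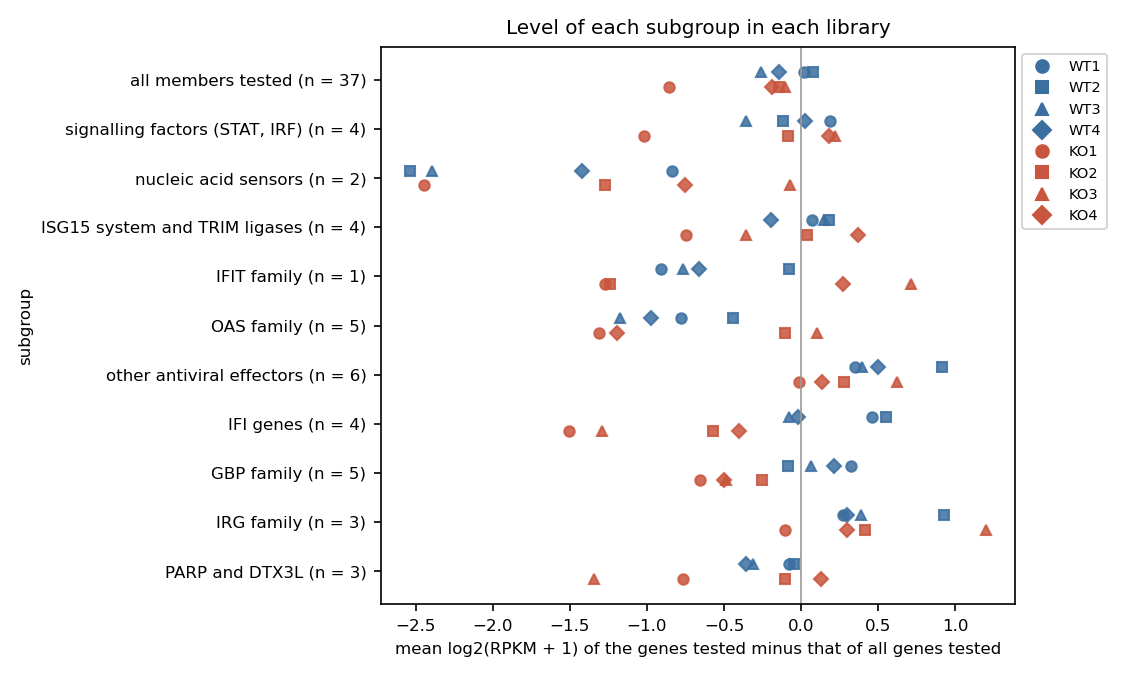
Level of each subgroup in each library (x axis, mean log2(RPKM + 1) of its genes tested minus that of all genes tested; y axis, subgroups with the number of genes; marker shape gives the library number, WT blue and KO red). KO1 (red circle) is the lowest or nearly the lowest in most rows, and the KO and WT libraries are apart only for the IFI genes and the GBP family.

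Upstream of the members, none of 11 interferon ligand genes, Ifnb1 and Ifng among them, was above 0 in any library. Of 9 receptor and Janus kinase genes 8 were tested, with 0 past an unadjusted p of 0.05. Ifngr1, the ligand-binding chain of the interferon-γ receptor, was at 91.8 ± 7.57 and 120 ± 35.7 RPKM (SD, n = 4). Its partner Ifngr2, named after its values were seen, was at 6.56, 4.19, 7.82 and 8.67 RPKM in WT and 11.4, 13.9, 10.2 and 10.5 RPKM in KO, higher in all 4 KO libraries (0.71 ± 0.34, limma adjusted p = 0.665). Jak1, the kinase common to both interferon receptors, was at 56.8, 55.8, 56.4 and 50.4 RPKM in WT against 33.5, 47.0, 13.8 and 48.3 RPKM in KO, lower in all 4 (-0.75 ± 0.36, limma adjusted p = 0.665). The WT values of Jak1 lay close together, and KO3 was the lowest library.

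Of all genes tested, 2.77% were higher and 4.74% lower at an unadjusted limma p under 0.05. Of 6 further STAT and IRF genes, all tested, 1 was higher at that threshold and 0 were lower. That gene was Irf8, a myeloid factor, at 11.2, 9.54, 28.9 and 22.0 RPKM in WT and 31.9, 42.0, 34.9 and 39.4 RPKM in KO (1.14 ± 0.34, limma adjusted p = 0.515). Stat5a and Stat3 were the most abundant, at 42.1 and 34.4 RPKM in WT and 38.7 and 28.6 RPKM in KO. Among 10 negative regulators and 12 sensors and adaptors 0 passed that threshold. Ptpn6, the phosphatase SHP-1 and the most abundant regulator, was at 58.0 to 83.9 RPKM in WT and 85.4 to 93.6 RPKM in KO, with all KO values above all WT values (limma adjusted p = 0.708).

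Among 33 other interferon-stimulated genes, 30 tested, 1 was lower at an unadjusted p under 0.05 (4.74% of all genes were) and 0 were higher. It was Oas1c, at 4.21, 10.7, 1.81 and 4.02 RPKM in WT, at 2.12 and 1.47 RPKM in KO1 and KO2 and listed at 0 in KO3 and KO4. The most abundant was Ly6e, a membrane protein related to Sca1, at 499 ± 62.2 and 590 ± 124 RPKM (SD, n = 4). Of 9 other GBP and IRG genes, 6 tested, 2 were lower at that threshold (4.74% of all genes were) and 0 higher. 1 of them, Gbp10, reached 1 RPKM in WT libraries only, so its presence among the genes tested already required a difference. Gbp6 was at 3.14, 2.24, 2.13 and 1.98 RPKM in WT against 0.189, 1.68, 0 and 0 RPKM in KO, and Gbp10 at 2.20, 2.74, 1.46 and 1.12 RPKM in WT against 0, 0.734, 0 and 0 RPKM in KO. Both had all KO values below all WT values, as Gbp2b did, but 84.1% of the 50-base windows of Gbp10 and 70.7% of those of Gbp6 occur in other genes. Tgtp1 and Tgtp2, IRG genes that share most of their sequence, both had KO1 as the lowest library, at 8.77 and 8.99 RPKM beside 30.9 to 41.3 RPKM in WT, and KO3 and KO4 as the highest, at 51.6 to 59.6 RPKM. The median difference over the 72 tested genes of these lists was -0.15, or -0.018 relative to all genes. The groups did not overlap in 3 lower and 3 higher genes of these lists, where 3.88% and 2.05% of all genes were so placed.

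Among the members, 18 of 37 had a negative difference and 4 (Oas1a, Oas2, Bst2 and Gbp3) a positive one in each alternative in which they were tested, and 15 changed sign in at least 1. Of all genes tested, 61.0% had a negative difference, and the share with a constant sign was not counted. Alternatives that changed only the filter, the variance model or the threshold could not change a sign. With library weights, a fit in which single libraries count more or less, 2 of 37 members passed the threshold, beside 1.45% of all genes. They were Gbp2b and Ifi44l (limma adjusted p = 0.00785 and 0.00833). Both reached 1 RPKM in WT libraries only, so their presence among the genes tested already required a difference. In bulk RNA fewer cells of a kind and less RNA per cell cannot be told apart, which holds for each difference above. Of 8 markers of plasmacytoid dendritic cells, a rich source of interferon, Klk1 and Cd300c were at 0 in all libraries, Siglech was at most 1.65 RPKM and Ccr9 at most 2.85 RPKM, and Cox6a2 was at 9.49 RPKM in WT1 and listed at 0 elsewhere. Ly6d was at 0 to 12.2 RPKM in WT and from 0 to 33.7 RPKM in KO, highest in KO3, and Tcf4, which stem and progenitor cells also express, at 33.8 to 37.9 RPKM and 25.2 to 50.0 RPKM. The 8 markers summed to 40.5 to 50.9 RPKM in WT and 26.9 to 58.8 RPKM in KO, and their part in the member levels was not tested.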

How the data were processed

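Poly(A) RNA of 8 libraries was grouped as 4 WT and 4 KO by the titles. TopHat and edgeR, and mm9 as the build, are named in the submitters' processing notes without version or role; which counter, annotation and filters were applied is not given in the sources used here. RPKM made by the authors were deposited, a unit inferred from the values, since these times the transcript length in kilobases sum to 1.15 to 1.18 M (mega) per library. Of 24112 Entrez IDs, 24029 (99.7%) matched a symbol in a GRCm38.p6 gene table, used for names and gene order only. Depth was read from values not above 0.2 RPKM in 3367 single-transcript genes; 49.5% to 69.4% were whole reads within 0.03, so the depth is approximate, whole reads were not recovered and no count test was run.

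log2(RPKM + 1) of the 11276 genes that reached 1 RPKM in 4 or more libraries was fitted with limma 3.58.1 in R 4.3.3 (genotype, eBayes with trend and robust variance) and adjusted by Benjamini-Hochberg over all of them; the fit was tested on simulated data. The members, subgroups and pathway lists were chosen with earlier results of these data known, so no list was tested. 1 factor of these lists is not reported here. Members were described in full where the groups did not overlap or where they had the highest level or the smallest p of a subgroup, others by range; further values were added after they were seen. Promoter matches used RefSeq windows, and shared 50-base windows were counted in GENCODE M21 transcripts. Alternatives changed the filter, pseudocount, scaling, lane, variance model, weights, threshold and libraries.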

Additional observations from a re-analysis of the deposited data

Results flagged for a closer look

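In 42 groups of 4 libraries, from the 21 members described in full, 4 values stood far from the other 3 of their group. For normally distributed values chance gives about 1 in 20. The KO group of Ifi44l, all at 0, could not be flagged. Oas1a in WT2 (28.8 RPKM) and Oas2 in WT3 (3.90 RPKM) were the highest of WT. Mx2 (1.33 RPKM) and Gbp2b (0.859 RPKM) in KO2 were the highest of KO, the other 3 KO libraries being listed at 0. With the others at 0 any value above 0 is flagged, so the rate of 1 in 20 does not apply to Mx2 and Gbp2b.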

How the results depend on the processing

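The number of members past an adjusted p of 0.05 was 0 in 19 of 20 alternatives, including each in which 1 library was left out, and 2 with library weights. Those were Gbp2b and Ifi44l, which reached 1 RPKM in WT libraries only. Over all genes the count was 2 in the lane 4 libraries only, 164 with library weights, 3 without WT2, KO3 and KO4, and 0 to 2 when 1 library was left out. The median difference of the members relative to all genes was negative in all 20 alternatives, from -0.27 to -0.03, and from -0.25 to -0.06 when 1 library was left out. The replicate block, the variance model and the looser threshold could not change this median, which stayed at -0.17. Lane as a covariate and the lane 4 libraries gave the same estimate, -0.27. For single members the changes of filter also left the difference as it was. The alternatives are therefore not all separate checks of direction. Ifit2 turned negative with lane as a covariate or in lane 4 only, which give the same estimate (-0.66). It was also negative with library weights (-0.47) and without WT2, KO3 and KO4 (-0.53). When 1 library was left out, Ifit2 ranged from -0.21 to 0.27. Zbp1 turned to -0.019 without WT2, KO3 and KO4 and to -0.25 with values of 0 as missing, an alternative added after seeing the data. The replicate numbers did not pair the libraries (correlations of same-numbered libraries -0.08 to -0.04, and no library correlated best with its own number), and with the replicate block 0 members and 0 genes passed. In the lane 4 alternatives KO1 and KO2 alone stand for KO. Depth is approximate, so no limits for low or zero values are given.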

Other observations

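The spread between KO libraries exceeded that between WT libraries in 29 of the 37 members tested (78.4%) and in 71.7% of all genes tested. The median SD of log2(RPKM + 1) was 0.37 in WT and 0.73 in KO for the members, and 0.40 and 0.64 for all genes.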
